A study of Schizosaccharomyces pombe with 10 samples.

Results

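The loci described here are those of ura4, leu1, ade6 and his3, the genes most often used as auxotrophic markers in fission yeast (Schizosaccharomyces pombe). Their windows were taken by the gene ID in the deposited table (SPCC330.05c, SPBC1A4.02c, SPCC1322.13 and SPBC11B10.02c), and 3 kb was added on each side. In all, 50 windows carried 1 of the 4 IDs, and 290 windows made up the 4 loci, out of 126317 windows of the table. The genes were chosen by their window levels against the median window in these libraries, so those levels are a description below and carry no test.

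Chromatin immunoprecipitation sequencing of Myo1-GFP, the class I myosin of fission yeast fused to green fluorescent protein, gave 10 libraries in 4 groups. Myo1-GFP-HP (3 replicates) and Myo1-GFP-LP (3 replicates) came from the strain labelled Myo1-GFP in high and low phosphate, and NoIP-HP (2 replicates) and NoIP-LP (2 replicates) from the strain labelled wild-type in the same media. All cells had 4 h in the medium (YES, or YES LowPi for low phosphate), and all libraries carry the same account of formaldehyde fixation and of a pulldown on GFP-binding beads, so the labels do not settle whether NoIP libraries had a pulldown. The labels name no auxotrophic allele for either strain, and nothing in them says whether replicates were separate cultures, so the spread between replicates may be technical.

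ura4 encodes orotidine 5′-phosphate decarboxylase, the last enzyme of uridine monophosphate synthesis, and cells without it need uracil. leu1 encodes 3-isopropylmalate dehydrogenase of leucine synthesis, ade6 encodes phosphoribosylaminoimidazole carboxylase of purine synthesis, whose loss turns colonies red, and his3 encodes histidinol-phosphate aminotransferase of histidine synthesis. Laboratory strains commonly carry a deletion of ura4 made by removing a HindIII fragment, and point mutations of leu1 and ade6, which the signal of a window does not show. A stretch of DNA that a strain lacks gives no reads in any chromatin library, with or without a pulldown.

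The sequences at the edges of the stretches that were missing from these libraries are given first, since the extents below are read against them. They are from RefSeq ASM294v3 (its 3 nuclear chromosomes end at the same base as in the deposited table, made on ASM294v2) and are written 5′ to 3′ on the plus strand. At ura4, capitals mark the HindIII recognition sequence AAGCTT (the same on both strands) in III:115310-115385 and III:117078-117178.
ura4 left edge: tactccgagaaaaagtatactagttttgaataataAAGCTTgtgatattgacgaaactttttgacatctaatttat
ura4 right edge: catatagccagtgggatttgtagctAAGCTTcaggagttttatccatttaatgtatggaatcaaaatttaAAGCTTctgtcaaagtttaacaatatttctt
At his3, which lies on the minus strand, capitals mark coding bases in II:1488157-1488256 and II:1489638-1489737.
his3 left edge: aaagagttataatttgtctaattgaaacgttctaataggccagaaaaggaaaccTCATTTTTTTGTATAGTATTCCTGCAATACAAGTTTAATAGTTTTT
his3 right edge: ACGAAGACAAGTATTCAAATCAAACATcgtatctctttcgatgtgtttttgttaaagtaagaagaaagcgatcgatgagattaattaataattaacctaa

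Each value below is the signal of a 200 bp window (windows start every 100 bp and overlap) divided by the median window of its library, so that 1 is the level of an average stretch of the genome. A window at or below 0.25 is called missing. With the smallest step between deposited values read as 1 read, a median window held 64 to 311 reads in 8 libraries, called the deeper ones here, but 8 in Myo1-GFP-HP replicate 3 and 11 in Myo1-GFP-LP replicate 3. Of all windows, 0.0990%, 0.0918% and 0.700% were missing in Myo1-GFP-HP replicates 1 to 3, 0.101% and 0.104% in NoIP-HP, 0.102%, 0.103% and 2.21% in Myo1-GFP-LP, and 0.0974% and 0.106% in NoIP-LP. A lone missing window in the 2 shallow libraries therefore says little.

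The ura4 gene was missing from 9 of the 10 libraries and present at about 0.5 of the median window in Myo1-GFP-HP replicate 2. ura4 lies on the minus strand of chromosome III (annotated 115589 to 116625, coding 115781 to 116575 in 1 exon), and 13 windows carried its ID. The mean of these windows, called the level of the gene, was 0.00896, 0.514 and 0.0865 in Myo1-GFP-HP replicates 1, 2 and 3. It was 0.0180 and 0.0267 in NoIP-HP replicates 1 and 2. In low phosphate it was 0.00445, 0.00734 and 0.0420 in Myo1-GFP-LP and 0.00285 and 0.00385 in NoIP-LP. Libraries of both strains and of both media were thus at or near 0, including the 4 from the strain labelled wild-type, and the replicate at 0.514 shared its strain and medium with replicates at 0.00896 and 0.0865.

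**Figure D1:**
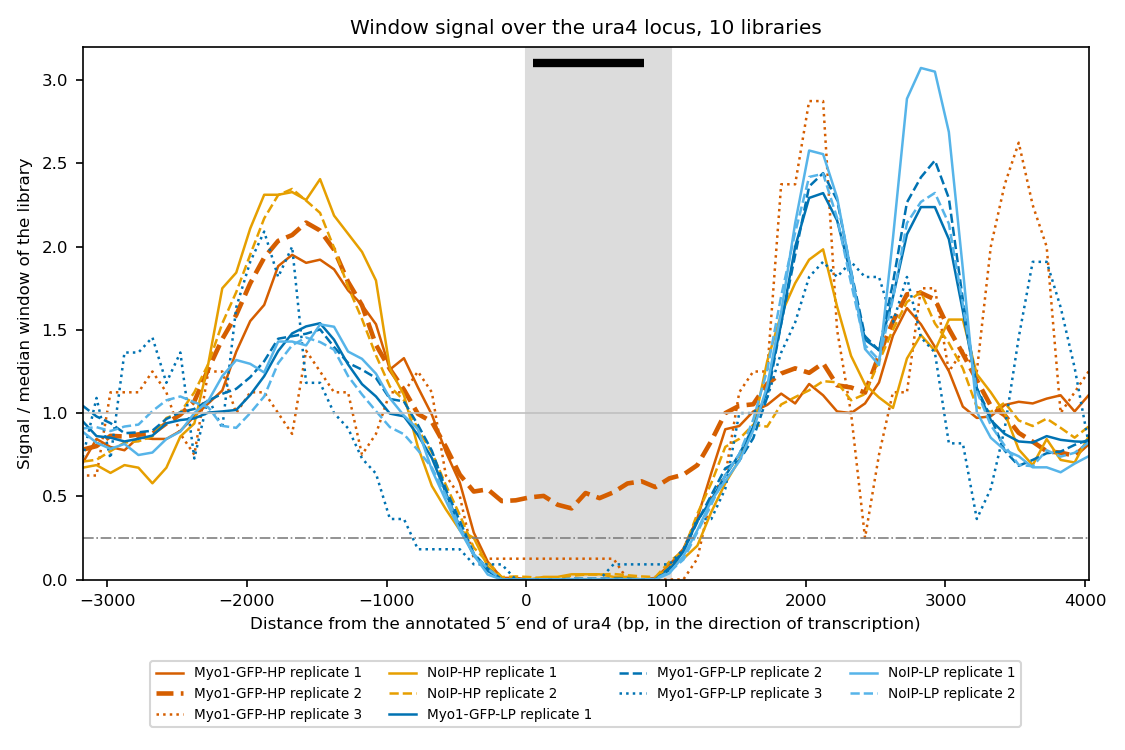
Signal over the ura4 locus in the 10 libraries. The x axis is the distance of a window's centre from the annotated 5′ end of ura4 in bp, the y axis the signal over the library's median window. Grey marks the annotated gene, the black bar its coding sequence, the dash-dot line the level of 0.25. 9 libraries fall to about 0 across the gene, and Myo1-GFP-HP replicate 2 (thick dashes) runs between 0.427 and 0.608 over the 13 windows of the gene.

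The same stretch was missing in the 9 libraries. In all 9, the 15 windows from III:115401-117000 (1600 bp) were at or below 0.25, and they held all 795 coding bases of ura4. Over chromosomes I to III, 25 of 125720 windows (0.0199%) were missing in all 9 of these libraries, and those at ura4 and his3 made up all 25. The 4 NoIP libraries shared 16 missing windows at ura4, a run of 1700 bp, out of 28 such windows on chromosomes I to III (0.0223%). Per library, 15 to 20 windows of the locus were missing in the 9 and 0 in Myo1-GFP-HP replicate 2. At the right end, the last window of the shared run (III:116801-117000) was at 0.0296 to 0.125 in the 9 libraries, and the next window (III:116901-117100) at 0.0909 to 0.282, above 0.25 only in Myo1-GFP-HP replicate 1.

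The edges were placed where the signal crossed 0.5 of the median window, by interpolation between window centres, in the 7 deeper libraries that lacked ura4. The left crossing was at 115298 ± 38 and the right crossing at 117182 ± 56 (SD, n = 7), with 1884 ± 93 bp between them. The crossings lay 483 bp and 607 bp outside the coding sequence, so the missing stretch was wider than the gene on both sides. The HindIII sites printed above start at 115345, 117103 and 117148, and the left one lay 47 bp inside the left crossing, the right ones 79 bp and 34 bp inside the right crossing. The distance from the left site to the nearer right site is 1758 bp, and 45 bp separate the 2 right sites. AAGCTT occurs in 10.2% of the 200 bp regions that tile chromosomes I to III, and windows of 200 bp do not place an edge to the base, so the match in position is a description.

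In Myo1-GFP-HP replicate 2 the signal over ura4 was even. Its 15 windows across the shared stretch ran from 0.427 to 0.630 with a coefficient of variation of 11.4%, and in windows that do not overlap they held 953 reads, or 52.5% of a median window (49.2% to 55.9%, exact Poisson 95% interval). In the other 9 libraries the same windows held 5 to 107 reads, or 2.13% to 7.81% of a median window. These reads include those of the 2 end windows, of which III:115401-115600 was at 0 to 0.1845 in the 9 libraries. The percentages are thus not a level across the gene. In the 7 deeper libraries among the 9, the longest stretch at exactly 0 ran from 0 to 1300 bp (median 1000 bp). In NoIP-HP replicate 2, 0 of the 15 windows was at exactly 0, and its lowest was 0.00738. The intervals cover counting error only, as PCR copies of a fragment are counted as separate reads. The level in replicate 2 was 0.545 of the windows 3 to 20 kb away on both sides, so it was low against its own surroundings as well as against the genome.

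The excess of Myo1-GFP-HP replicate 2 over the other libraries was looked for elsewhere in the genome. Of the 27 windows on chromosomes I to III (0.0215%) that were missing in all 7 other deeper libraries, 15 lay at ura4, 10 at his3 and 2 at chromosome ends. Replicate 2 was above 0.4 in 15 of the 27, all at ura4. Outside ura4, only the 10 windows at his3 and the 2 at chromosome ends could have shown such an excess. For each of the 7 other deeper libraries in turn, 0 windows were above 0.4 where the remaining 7 were missing, out of 12 or 13. Those 7 include replicate 2, which has signal at ura4, so no window of ura4 could count. The 2 results are therefore not alike, and no conclusion is drawn from the 0. Among 5411 genes of chromosomes I to III with at least 5 windows, ura4 had the lowest level in 9 libraries and the third lowest in replicate 2. The source of the signal in replicate 2 was not tested.

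The genes beside ura4 were present in all 10 libraries. Of 11 annotated genes within 3 kb (4 protein-coding, 6 long non-coding RNAs and 1 tRNA), 0 held a window missing in all 9 libraries. tam14, whose annotated end at 115256 lies just to the left of the missing stretch, was at 0.767 to 1.02 in the 10 libraries. new25, to the right, was at 1.09 to 1.73 in the 8 deeper libraries, and pmp20, which encodes a thioredoxin peroxidase of the peroxiredoxin family, at 1.13 to 1.91. The table gives the ID SPNCRNA.129 to 2 windows at the left edge, III:115301-115500 and III:115401-115600, and the second of them was missing in the 9 libraries together with ura4.

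his3 was missing from all 10 libraries, Myo1-GFP-HP replicate 2 included, although its gene ID hardly shows it. The gene lies on the minus strand of chromosome II (annotated 1488036 to 1489690, with 4 coding exons between 1488211 and 1489664). The table gives its ID to 2 windows only, at the 5′ end, and labels the rest of the gene as alg2, whose annotated transcript (1486132 to 1489535, plus strand) runs across it from the other side. By these 2 windows the level of his3 was 0.524, 0.643 and 0.375 in Myo1-GFP-HP and 0.570 and 0.613 in NoIP-HP. It was 0.767, 0.563 and 0.182 in Myo1-GFP-LP and 0.630 and 0.748 in NoIP-LP. Over the 18 windows that overlap the annotated span it was 0.157 to 0.280, with a median of 0.214 over the 10 libraries, so the reading of this locus turns on which windows count as the gene.

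**Figure D2:**
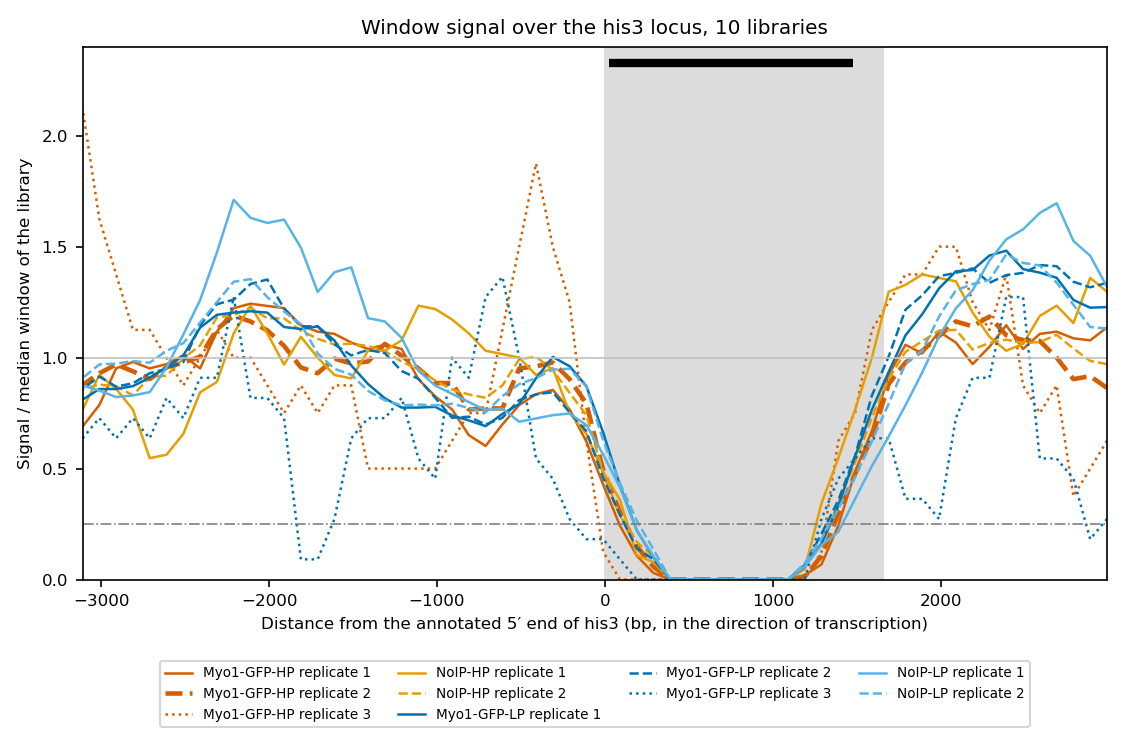
Signal over the his3 locus in the 10 libraries. The x axis is the distance of a window's centre from the annotated 5′ end of his3 in bp, the y axis the signal over the library's median window. Grey marks the annotated gene, the black bar the span of its coding sequence, the dash-dot line the level of 0.25. All 10 libraries reach 0 inside the gene, Myo1-GFP-HP replicate 2 among them.

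Within his3, 10 windows (II:1488401-1489500, 1100 bp) were missing in all 10 libraries, and these were the only windows of chromosomes I to III missing in all 10 (10 of 125720, 0.00795%). In the 8 deeper libraries 12 windows were missing throughout (0.00955%), the same 10 among them. In 8 of them (II:1488501-1489400, 900 bp) every library was at exactly 0. A count of 0 over the 4 of these windows that do not overlap allows up to 0.241% to 1.17% of a median window in the deeper libraries, and up to 6.82% and 9.38% in the shallow ones. The missing run held 885 of the 1155 coding bases of his3 (76.6%), and the stretch at 0 held 785 (68.0%). Over the 5 windows of the missing run that do not overlap, reads came to 0.264% of a median window in Myo1-GFP-HP replicate 2 and to at most 1.46% in the other 9 libraries, so the library that had signal at ura4 had none to speak of here.

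The edges at his3 lay close to the ends of its coding sequence. In the 8 deeper libraries the signal crossed 0.5 at 1488207 ± 61 and at 1489688 ± 41 (SD, n = 8), with 1481 ± 60 bp between the crossings. The coding sequence with its introns spans 1454 bp, and the crossings lay 4 bp and 24 bp outside its ends, both less than the SD over libraries. That SD is the spread between libraries and not the error of an edge, which windows of 200 bp do not place to the base. The match in position is therefore a description here too. The closeness to the coding ends differs from ura4, where the missing stretch reached far beyond the coding sequence. HindIII sites start at 1487081, 1488715 and 1489921 around his3, and the nearest to the right crossing lay 233 bp outside it. Per library, 11 to 17 windows of the locus were missing.

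alg2, which encodes a mannosyltransferase of N-glycan synthesis, was the only 1 of 6 annotated genes near his3 to hold windows missing in all 10 libraries, 10 of its 30 windows within the locus. In the shallow Myo1-GFP-LP replicate 3 alone, windows of cog8 (II:1491301-1491500 and II:1491401-1491600, both at 0.0909) were missing too. The level of alg2 over its 30 windows was 0.549 to 0.704 in the 8 deeper libraries. Its coding sequence (1486152 to 1487938) lies outside the missing run, with 0 coding bases inside it, and the windows over its coding sequence had a median level of 1.15 over the 10 libraries. cog8 and mrps28, on the other side of his3, were at 0.960 to 1.16 and 0.881 to 1.22 in the deeper libraries.

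leu1 was present in all 10 libraries. It lies on the minus strand of chromosome II (annotated 1974390 to 1975674, 1 coding exon) and has 15 windows. Its level was 1.02, 1.05 and 1.24 in Myo1-GFP-HP, 1.25 and 1.06 in NoIP-HP, 1.11, 1.22 and 1.64 in Myo1-GFP-LP and 1.17 and 1.10 in NoIP-LP. The groups overlapped, and the highest value came from the shallow Myo1-GFP-LP replicate 3. No window of leu1 was missing in any library, and of the 75 windows of the locus 1 was missing, in that shallow library only. knh4, to the left, had the highest median level of the 12 protein-coding neighbours of the 4 loci, at 1.78 to 2.55 in the 10 libraries, and top2, which encodes DNA topoisomerase II, was at 0.937 to 1.12 in the deeper ones. apc10, a subunit gene of the anaphase-promoting complex, was at 1.05 to 1.22 in the deeper libraries.

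ade6 was present as well. It lies on the plus strand of chromosome III (annotated 1316281 to 1318035, 1 coding exon) and has 20 windows. Its level was 1.02, 0.887 and 1.19 in Myo1-GFP-HP, 1.04 and 0.949 in NoIP-HP, 1.04, 0.993 and 0.900 in Myo1-GFP-LP and 1.19 and 1.11 in NoIP-LP. The 4 groups overlapped in part, and values over all 10 libraries stayed between 0.887 and 1.19. The only missing windows, 2 of them, were again in Myo1-GFP-LP replicate 3. bub1, a spindle checkpoint kinase gene to the left, was at 0.925 to 1.01 in the deeper libraries. vtc4, to the right, encodes the polyphosphate polymerase subunit of the vacuolar transporter chaperone complex, and its level was 1.19 to 1.43 in the 5 high phosphate libraries and 1.26 to 1.55 in the 5 low phosphate libraries, which overlapped.

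**Figure D3:**
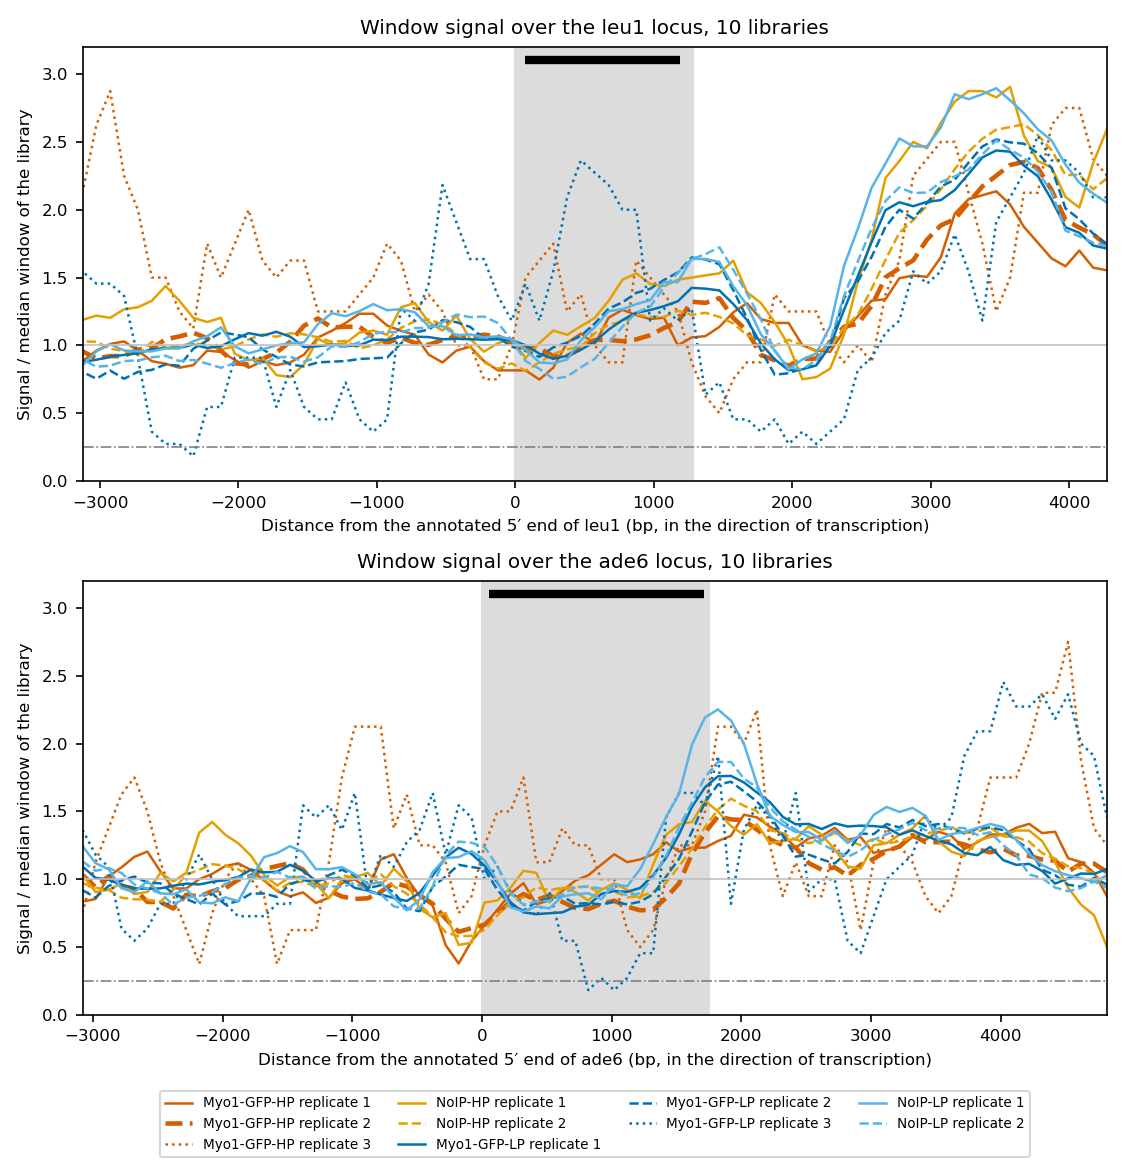
Signal over the leu1 locus (top) and the ade6 locus (bottom) in the 10 libraries. The x axis is the distance of a window's centre from the annotated 5′ end of the gene in bp, the y axis the signal over the library's median window, with marks as for ura4. No deeper library comes down to 0.25 at either locus, and just before the 5′ end of ade6 the low phosphate libraries (blue) lie at 1.11 to 1.55 and the high phosphate libraries (orange) at 0.379 to 0.750.

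In order of level over the annotated span, the median over the 8 deeper libraries was 0.0215 for ura4, 0.214 for his3, 1.03 for ade6 and 1.13 for leu1. ura4 and his3 changed places in Myo1-GFP-HP replicate 2, where ura4 was at 0.526 and his3 at 0.190. The ranges of ade6 (0.887 to 1.19) and leu1 (1.04 to 1.28) overlapped, so these neighbours in the order were not apart beyond their spread. Over the 5411 genes, the 5 percent point of the level was at 0.613 to 0.861 in the 10 libraries, and ura4 was below it in each.

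**Figure D4:**
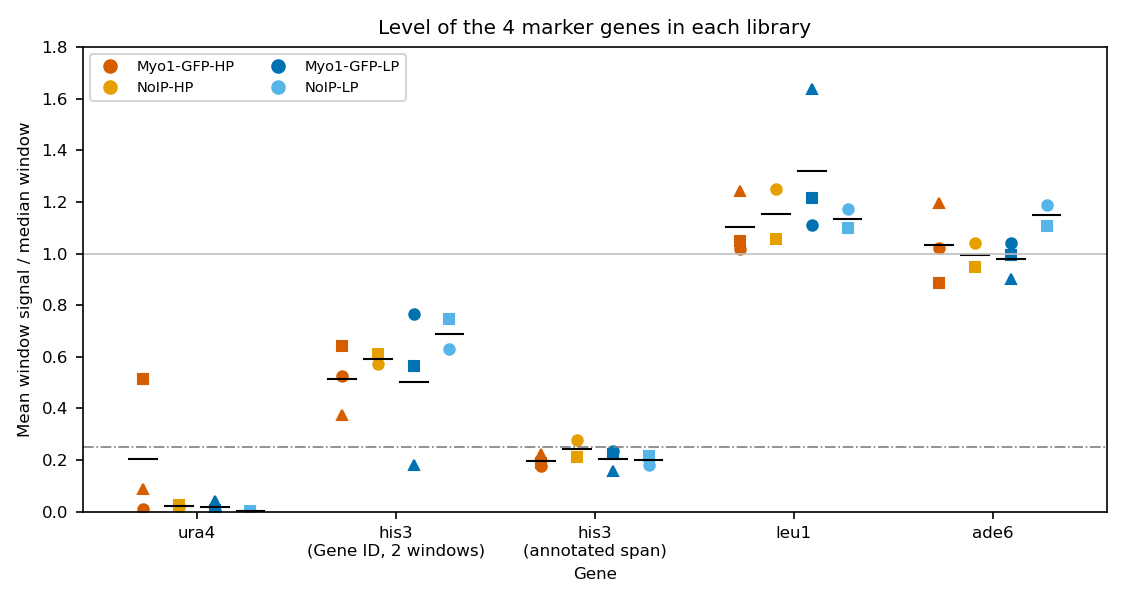
Level of the 4 genes in each library, with his3 shown by its 2 labelled windows and by its annotated span. The y axis is the mean window signal over the library's median window, symbols are replicates 1 (circles), 2 (squares) and 3 (triangles), black bars are group means, and the dash-dot line is 0.25. ura4 is at or below 0.0865 except in Myo1-GFP-HP replicate 2 (0.514), and leu1 and ade6 lie at 0.887 or above.

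The other genes of the same pathways showed no missing stretch. Of 31 listed genes of uracil, leucine, adenine and histidine synthesis and of other auxotrophic markers, 28 were matched to the annotation, and 0 of the 28 had a window missing in all 8 deeper libraries. The lowest window of any of them in a deeper library was 0.469, in ade1, and the medians of the 28 genes had a median of 1.19. Among uracil genes, ura2 (dihydroorotase) was lowest at 0.928 and ura1, the large multifunctional enzyme of the first steps, highest at 1.76. leu3 and leu2 were at 1.81 and 2.16. Among adenine genes ade5 was lowest at 0.780 and ade3 highest at 1.43, and among histidine genes his6 was lowest at 1.001 and his2 highest at 1.29. Among other markers arg6 was at 1.03 and lys3 at 1.79. All are medians over the 8 deeper libraries.

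**Figure D5:**
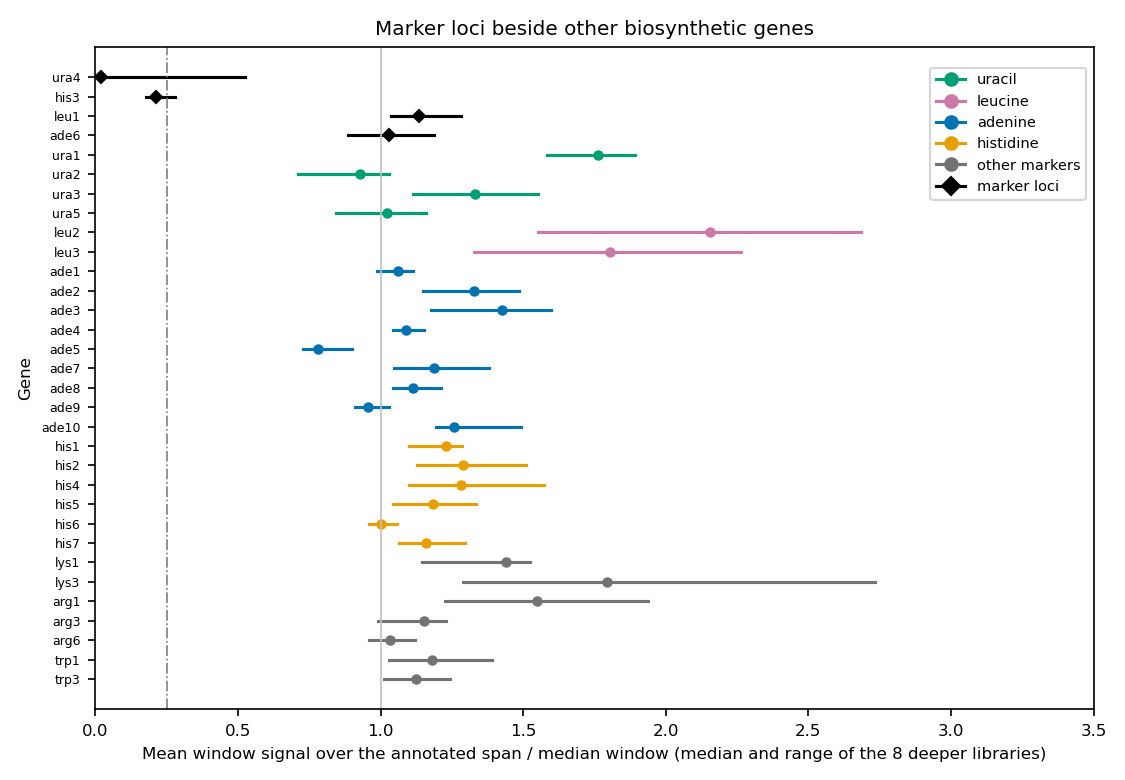
Level of the 4 marker genes and of 28 other biosynthetic genes over their annotated spans. The x axis is the mean window signal over the library's median window, points are medians and lines the range of the 8 deeper libraries, and the dash-dot line is 0.25. Only the medians of ura4 (0.0215) and his3 (0.214) lie below 0.25, and the line of ura4 reaches 0.526 because of Myo1-GFP-HP replicate 2.

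By likeness over the 10 libraries (mean absolute difference in level, 5411 genes), no gene came close to ura4. The nearest were SPNCRNA.370 at a difference of 0.401, SPNCRNA.233 at 0.501 and SPCP20C8.02c at 0.502. For his3, by its 2 labelled windows, they were SPNCRNA.370 at 0.122, SPNCRNA.233 at 0.123 and alg2 at 0.126, and alg2 is the gene to which the table assigns the missing windows of his3.

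Differences between the groups were tested window by window with limma on log2(value over the median window + 0.1), over 126242 windows with Benjamini-Hochberg adjustment. Of the 290 windows, 282 were tested, and the 8 left out were those of his3 at 0 in every library. For Myo1-GFP against NoIP, 0 of 126242 windows passed an adjusted p of 0.05 in high phosphate, in low phosphate or over both (0% each), and thus 0 of 282. At an unadjusted p under 0.05, the 3 comparisons gave 1, 0 and 3 windows of the 4 loci, against 1482, 135 and 1064 over all windows (1.17%, 0.107% and 0.843%). With array weights, limma passed 0, 10 and 7 windows of the table.

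For low against high phosphate, 27 windows of the table passed in Myo1-GFP (0.0214%, all higher in low phosphate) and 0 in NoIP, and 0 of the 282 were among them. At an unadjusted p under 0.05, 20 of the 282 (7.09%) were below it in Myo1-GFP, against 8.30% of all windows, and 20 in NoIP, against 4.53%. Of the 20 in NoIP, 13 were at the ura4 locus, 0 of them in the gene, and 5 at ade6. Over both kinds of library together, a contrast chosen after the data were seen, 1392 windows passed (1.10%). Of these, 1271 (1.01% of all windows) were higher and 121 (0.0958%) lower in low phosphate. Of the 282, 3 passed, all higher (2 at ade6 and 1 beside ura4). That share is close to the 1.10% of all windows, so the number of calls does not set the 4 loci apart. At an unadjusted p under 0.05 the count was 24 of the 282, against 9.21% of all windows. Over the 4 loci together this share (8.51%) was close to that over all windows, but the loci differed. It was 15 of 73 windows at ura4 (20.55%, 0 of them in the gene) and 7 of 80 at ade6 (8.75%). At his3 it was 2 of 54 (3.70%) and at leu1 0 of 75. Windows overlap their neighbours, and whether the share at ura4 exceeds that of other loci was not tested.

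The 2 windows at ade6 cover the stretch between bub1 and the 5′ end of ade6, which are transcribed away from each other. It is printed here because it holds the largest change that passed at these loci, III:1316001-1316300 on the plus strand, with the first bases of the annotated ade6 transcript in capitals.
ade6 upstream windows: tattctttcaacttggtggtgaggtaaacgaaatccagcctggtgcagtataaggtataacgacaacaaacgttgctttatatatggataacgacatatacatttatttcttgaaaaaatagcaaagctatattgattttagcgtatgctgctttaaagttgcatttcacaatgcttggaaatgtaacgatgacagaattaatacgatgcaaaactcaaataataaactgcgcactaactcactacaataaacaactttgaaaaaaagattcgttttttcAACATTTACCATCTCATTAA
In III:1316001-1316200 the signal was 0.379, 0.612 and 0.750 in Myo1-GFP-HP and 0.516 and 0.579 in NoIP-HP. It was 1.23, 1.11 and 1.55 in Myo1-GFP-LP and 1.16 and 1.28 in NoIP-LP. All 5 low phosphate libraries lay above all 5 high phosphate libraries, in both kinds of library. The change over both kinds was 1.05 ± 0.18 (SE, log2 scale with 0.1 added) with a limma adjusted p of 0.0245, and 0.91 ± 0.15 with an adjusted p of 0.0227 in the next window. Within Myo1-GFP alone the first window changed by 1.06 (limma adjusted p = 0.168) and within NoIP by 1.03 (adjusted p = 0.418), neither of which passed. The call over both kinds was lost for III:1316001-1316200 when any of 7 libraries was left out, with adjusted p between 0.0138 and 0.160 and changes between 0.93 and 1.14, and for III:1316101-1316300 when any of 8 was.

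The window beside ura4 (III:114201-114400) lies to the left of the missing stretch, where the non-coding RNAs SPNCRNA.6706 and SPNCRNA.6707 are annotated. Its signal was 1.0, 1.15 and 1.0 in Myo1-GFP-HP, 1.34 and 1.08 in NoIP-HP, 1.83, 1.85 and 1.91 in Myo1-GFP-LP and 1.85 and 1.78 in NoIP-LP, with no overlap between media. The change over both kinds of library was 0.66 ± 0.13 (SE, log2 scale), with a limma adjusted p of 0.0379, which was lost when any of 8 libraries was left out. Windows in which all 5 low phosphate libraries lay above all 5 high phosphate libraries numbered 4 of 73 at ura4, 0 of 75 at leu1, 3 of 80 at ade6 and 1 of 54 at his3, against 3.94% of all windows. Windows with the reverse order numbered 4, 1, 1 and 0, against 2.12%. The 2 shallow libraries are both Myo1-GFP replicate 3. Without them limma passed 4 windows at ade6 and 5 at ura4 in Myo1-GFP. That was 9 of the 282, against 4898 of all 126242 windows. In NoIP it passed 4 at ade6, 14 at ura4 and 2 at his3, or 20 of the 282, against 7433 of all 126242. In neither was the share over the 4 loci together far from that of the table. At ura4 alone the share in NoIP, 14 of 73 windows, was above that of the table. Whether it exceeds that of other loci was not tested.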

How the data were processed

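The 10 libraries were analysed from a deposited table of window signal. Per the submitters' processing notes, the authors trimmed reads with Trim Galore 0.3.8 and aligned them with Bowtie2 2.2.4 to ASM294v2, while the study's methods name TopHat and SeqMonk. The deposited signal values are whole multiples (within 0.01) of the smallest value above 0 in each library, and that step was taken as 1 read, which the sources do not establish. The authors' scaling factor and any removal of duplicates are not given in the sources used here. Summed over overlapping windows, the depth ran from 1.42 to 43.8 (in units of 1e6 steps), so that a median window had a counting error of 5.67% to 35.4%.

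Values were divided by the median window of the library. Reads that map to more than 1 place may have been lost or shared by steps that are not stated. Missing windows (at or below 0.25), gene levels (mean of the windows with the gene ID), runs and crossings of 0.5 were computed in Python 3.11.15 with pandas 2.3.3 and numpy 2.4.6, exact Poisson 95% intervals with scipy 1.17.1, and plots with matplotlib 3.10.9. The limit that a count of 0 allows is 3 steps. Windows above 0 in at least 2 libraries entered limma 3.58.1 under R 4.3.3, with lmFit and trended eBayes, on log2(ratio + 0.1), with 1 mean per group over all 10 libraries, two-sided. The fit was also run on simulated data, but no outcome is given here, so the run says nothing about the calls in these libraries. The RefSeq annotation held the gene ID of 99.4% of labelled windows on chromosomes I to III.

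The members, lists and tests were chosen with earlier results of these data known. Genes named are the 4 members, their neighbours within 3 kb, the lowest and highest gene of each pathway list, any listed gene with missing stretches, and the 3 genes nearest in level to ura4 and his3. Alternatives were a local reference (windows 3 to 20 kb away), every second window, the median over windows, thresholds of 0.1 and 0.5, another pseudocount (1), quantile normalization, no filter, array weights, no trend, a replicate block and leaving out each library. Annotated spans, the 8 deeper libraries and the contrast over both kinds of library were added after the data were seen.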

Additional observations from a re-analysis of the deposited data

Results flagged for a closer look

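The level of ura4 in Myo1-GFP-HP replicate 2 (0.514) lay far above the 5 other Myo1-GFP libraries, the next highest of which was 0.0865. The gap to the next library was 0.839 of the range over 6 libraries. The level of leu1 in Myo1-GFP-LP replicate 3 (1.636), a shallow library with 11 reads in a median window, lay above the other 5, with a gap of 0.639 of the range. Both are given as samples far from the others of their strain, as a description and not as a test, since the genes were chosen by these levels. Chance alone marks about 1 in 20 groups, and 8 groups were looked at.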

How the results depend on the processing

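Of 76 alternatives for the gene levels 72 stayed within the spread between replicates. For ura4 in Myo1-GFP that spread (SD 0.200) fell to 0.0352 without Myo1-GFP-HP replicate 2, so staying within it says little there. For missing windows 59 of 68 alternatives were counted as unchanged, by a rule that did not use the spread. At a threshold of 0.1, ura4 in NoIP went from 16.25 (SD 0.5) to 13.5 windows and was counted as unchanged. Without Myo1-GFP-HP replicate 2, the mean level of ura4 in Myo1-GFP fell from 0.111 to 0.0299 (range on leaving out each library 0.0299 to 0.132), and in NoIP the range was 0.00824 to 0.0162. Over the annotated span, chosen after the data were seen, his3 was at 0.201 in Myo1-GFP and 0.222 in NoIP (0.509 and 0.640 by gene ID), and by every second window at 0.539 in NoIP. The median over windows put ade6 at 0.942 in NoIP (mean 1.07). Missing windows per Myo1-GFP library averaged 0.167 at leu1 and 0.333 at ade6. At a threshold of 0.5 these were 3.17 and 1.83, at 0.1 or in the 8 deeper libraries 0 and 0, and on leaving out each library 0 to 0.2 and 0 to 0.4, with 0 without Myo1-GFP-LP replicate 3. In NoIP a threshold of 0.5 gave 0.25 at ade6 (0 at 0.25).

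Counts of windows passing limma moved most, in 33 of 102 alternatives, and the cause was not tested. For Myo1-GFP against NoIP array weights gave 10 in low phosphate and 7 over both media (0 without weights). For low against high phosphate, quantile normalization gave 762 in Myo1-GFP, 335 in NoIP and 4079 over both (27, 0 and 1392 otherwise), array weights gave 10613, 5736 and 15513, and the 8 deeper libraries, added after the data were seen, 4898, 7433 and 14011. Leaving out each library gave 0 to 635, 0 to 510 and 0 to 4365. The highest of each came without the shallow Myo1-GFP-LP replicate 3, and leaving out any other library gave 0 in Myo1-GFP. Deviations from the group means correlated at -0.235 to 0.391 over 13 same-numbered pairs (median 0.195, 8 above 0.1) and at -0.391 to 0.273 over 24 others (median -0.14, 7 above 0.1). All 6 pairs of replicates 2 were above 0.1 (0.123 to 0.391), but not every pair was. In the groups of 2 NoIP libraries the deviations are exact opposites, so pairs with them repeat each other with the sign reversed. The correlations therefore cannot settle the pairing, and the numbers were not taken to pair the samples. With a replicate block the counts were 31, 0 and 2389. Depth limits single windows in the 2 shallow libraries.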
